A study of Mus musculus with 16 samples.

Results

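A set of 7 mature miRNAs of the paralogous miR-23, miR-27 and miR-24 clusters were followed in mouse carotid arteries after wire injury. They were taken by array name from 611 mouse miRNAs on an Agilent array: miR-23a, miR-27a and miR-24-2* from the cluster on chromosome 8, miR-23b, miR-27b and miR-24-1* from the cluster on chromosome 13, and miR-24, which both clusters encode. All 7 had probes well above background on all 16 arrays and all 7 were among the 322 miRNAs tested. Every artery came from a female mouse lacking apolipoprotein E (ApoE-/-) on a C57BL/6 background, kept on a western-type diet. Uninjured arteries (n = 3) were compared with arteries taken 1 day (n = 3), 7 days (n = 3), 14 days (n = 3) and 28 days (n = 4) after injury. The labelled age was 8 weeks for the day 1 mice and 6 to 8 weeks for the others. The genotype and diet were shared by all groups, so injury was studied only on this atherosclerosis-prone background. The labels speak of animals per group, but do not say whether any of the uninjured arteries came from an injured mouse.

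A miRNA cluster is transcribed as 1 long primary RNA, from which each hairpin is cut out and trimmed to a short mature strand. The mature strand guides silencing complexes to target mRNAs mainly through its seed, bases 2 to 8, while the strand marked with an asterisk is the partner from the other arm and is usually less abundant. The miR-23, miR-27 and miR-24 clusters are known to be expressed in endothelial cells, where miR-23 and miR-27 promote angiogenic growth, and all 3 families have been studied in smooth muscle, heart and immune cells.

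The sequences show which strands the clusters share and which they do not. Capitals mark the seed, and the sequences are those of RefSeq with coordinates on GRCm38.p6. Of the 7 names 6 matched, all but miR-23b, whose mature sequence is therefore not listed. The hairpin of miR-23b also holds the seed of miR-23a.

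mmu-miR-23a: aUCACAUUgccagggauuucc

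mmu-miR-27a: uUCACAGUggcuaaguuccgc

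mmu-miR-27b: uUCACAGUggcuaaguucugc

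mmu-miR-24: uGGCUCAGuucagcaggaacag

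mmu-miR-24-2*: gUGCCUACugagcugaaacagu

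mmu-miR-24-1*: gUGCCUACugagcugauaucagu

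miR-27a and miR-27b have the same seed and differ by C19U, counted from 1 at the 5′ end with the base of miR-27a first. miR-24-2* and miR-24-1* also share their seed and their first 16 bases, and then differ up to their ends at 22 and 23 bases. miR-24 itself is the same in both clusters, so its signal is the sum of both loci. How far the probes for such similar strands cross-hybridise was not tested.

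The chromosome 8 cluster spans chr8:84208518-84208921 on the plus strand, 404 bases, with gaps of 79 and 56 bases between its 3 hairpins. The chromosome 13 cluster spans chr13:63300484-63301275 on the plus strand, 792 bases, with gaps of 154 and 423 bases. It lies within the bounds of the protein-coding gene Aopep, which encodes an aminopeptidase. In both clusters the hairpin of miR-24 overlaps another annotated miRNA gene, Mir3074-2 on chromosome 8 and Mir3074-1 on chromosome 13. The 2 hairpins that carry miR-24 (capitals) differ around it, so the partner strands, unlike miR-24, belong to 1 locus each.

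Mir24-2: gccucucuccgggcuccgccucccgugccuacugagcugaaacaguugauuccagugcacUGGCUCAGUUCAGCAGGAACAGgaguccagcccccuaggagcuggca

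Mir24-1: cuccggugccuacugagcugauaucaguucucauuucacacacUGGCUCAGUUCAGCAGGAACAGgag

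Levels are log2 of the scaled signal: the background-subtracted brightness of a miRNA's brightest probe, divided by the 75th percentile of that array's detected probes. A level of 0 is therefore the signal at that percentile. The levels of different probes depend on the probe and are not set against each other. That percentile ranged from 401 to 1432 intensity units over the arrays (401 to 624.1 in uninjured arteries, 816.2 to 1214 at day 7), and 26.4% to 38.7% of mouse probes were well above background per array. The 16 arrays lay on 2 slides: all day 1 and day 7 arrays and 2 of day 28 on the first, all uninjured and day 14 arrays and 2 of day 28 on the second. Day 1 and day 7 are thus separated from uninjured by slide, and only the day 28 arrays link the slides. Differences were tested with limma over all 5 groups with Benjamini-Hochberg adjustment over the 322 miRNAs and called at an adjusted p under 0.05. The same values were fitted again with slide as a block. For called member differences between 2 groups, that fit is given where it ends the call or the groups lie on different slides. It is not given for the cell type markers. The labels do not say how arteries were drawn within a group, so p-values measure the spread between these arrays.

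The 2 members that lay furthest below uninjured arteries at day 7, miR-23b and miR-24-1*, both come from chromosome 13. At day 7, 6 of the 7 members were called lower than in uninjured arteries, where 22.4% of all tested miRNAs were called lower. The median difference of the members was -0.62, against 0.00 over all tested miRNAs. All 3 chromosome 13 members fell, with a median of -1.18, and 2 of the 3 chromosome 8 members fell, with a median of -0.47. Without any scaling, all tested miRNAs had a median difference of 0.86, and the differences of miR-23a (0.49), miR-27a (0.35), miR-27b (0.40) and miR-24 (0.16) turned positive, while miR-23b (-0.22) and miR-24-1* (-0.48) stayed negative, and none of these was called, where 2.8% of all tested miRNAs were called lower. The falls at day 7 are therefore falls relative to the other miRNAs of the same array. With slide as a block, 2 members (miR-23b and miR-24-1*) were still called lower, where 12.1% of all tested miRNAs were.

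**Figure D1:**
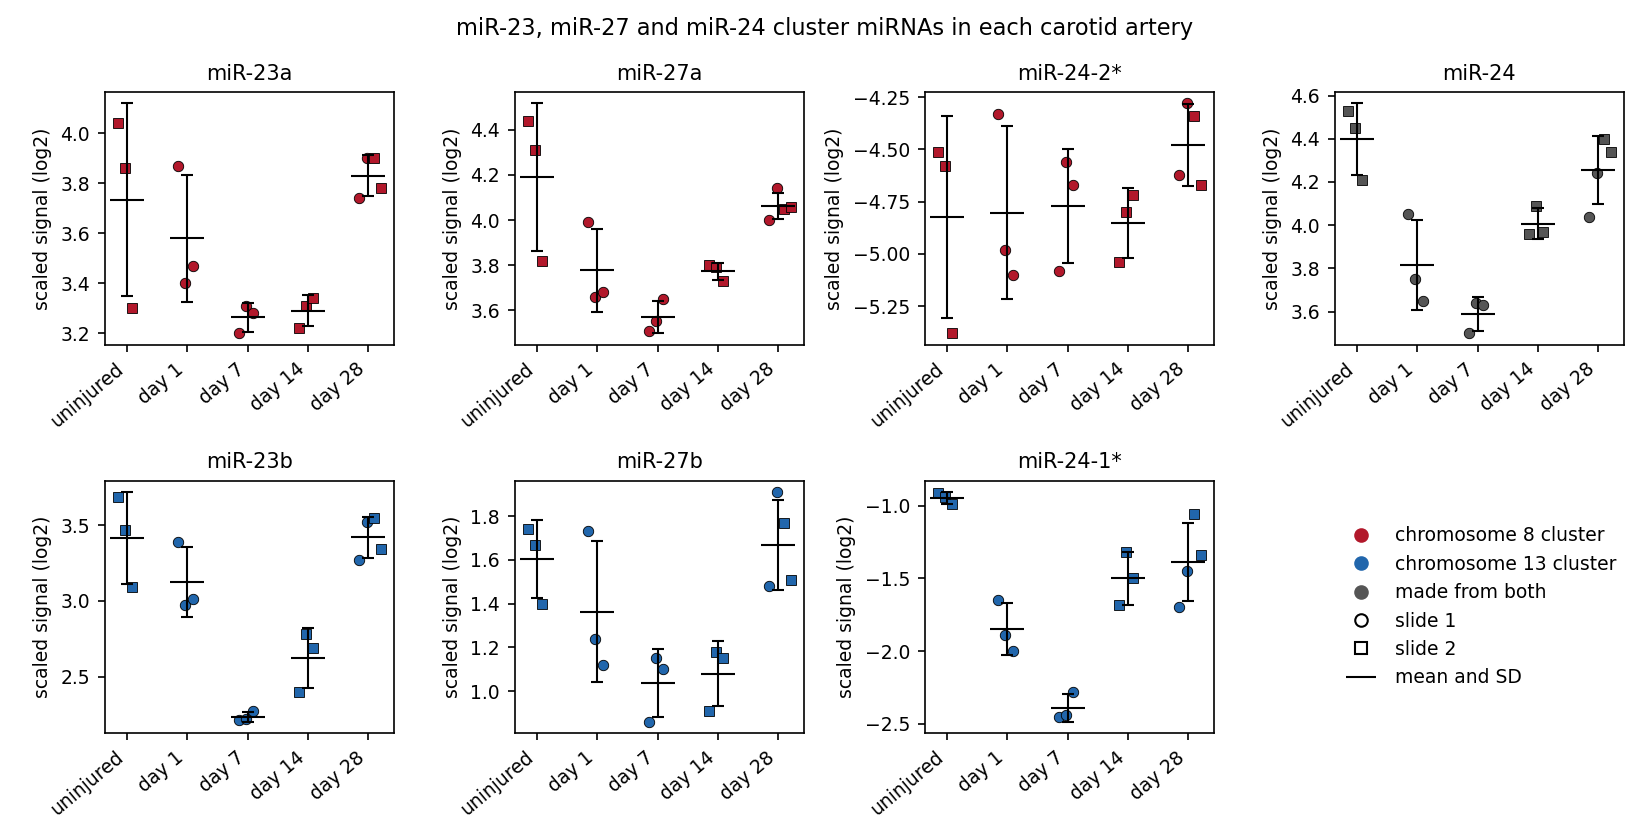
Level of each miRNA (log2 scaled signal, own axis per panel) in each of the 16 carotid arteries by group, with circles for slide 1 and squares for slide 2 and black bars for the mean and SD. The 3 day 7 arteries lie at 2.21 to 2.27 for miR-23b and at -2.45 to -2.28 for miR-24-1*, below all arteries of the uninjured group. Such a separation was seen for 31.7% of all tested miRNAs, and miR-24-2* shows no such dip.

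miR-23b, which opens the chromosome 13 cluster, stood at 3.69, 3.47 and 3.09 in the uninjured arteries. It was at 3.39, 2.97 and 3.01 at day 1, 2.21, 2.22 and 2.27 at day 7, 2.40, 2.78 and 2.69 at day 14, and 3.27, 3.52, 3.55 and 3.34 at day 28. All day 7 and day 14 arteries lay below all uninjured ones, as was the case for 31.7% and 23.3% of all tested miRNAs. Day 1 and day 28 overlapped with uninjured. The mean fell from 3.42 ± 0.30 (SD, n = 3) to 2.23 ± 0.03 (SD, n = 3) at day 7, a 2.27-fold lower signal (log2 difference -1.18 ± 0.17 SE, limma adjusted p = 7.19e-05; -1.13 and 0.00832 blocked by slide). At day 14 it was 1.73-fold lower (-0.79, limma adjusted p = 0.00228), and within the slide that holds both groups the limma adjusted p was 0.0175. Days 7 and 1, which share a slide, differed by -0.89 (limma adjusted p = 0.000915), and within that slide alone the limma adjusted p was 0.00282. That difference depended on the scaling, with -0.41 (limma adjusted p = 0.213) for the 75th percentile over all mouse probes, -0.40 (0.161) for the median and -0.17 (0.776) for no scaling. From day 14 to day 28 miR-23b rose by 0.80, 1.74-fold (limma adjusted p = 0.00493; 0.0223 with slide as a block, 0.075 within slide 2, where each day keeps 3 and 2 arrays). The second probe for miR-23b gave -1.29 at day 7 (limma adjusted p = 6.38e-05) and 0.80 from day 14 to day 28 (0.00985).

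Its counterpart on chromosome 8, miR-23a, moved less. The uninjured arteries stood at 4.04, 3.86 and 3.30, a wider spread than in any injured group, and the day 1 arteries at 3.87, 3.40 and 3.47. At day 7 the levels were 3.20, 3.31 and 3.28, at day 14 3.22, 3.31 and 3.34, and at day 28 3.74, 3.90, 3.90 and 3.78. Uninjured replicate 3, the lowest of its group for every member, overlapped with both days 7 and 14. miR-23a was 1.39-fold lower at day 7 (-0.47 ± 0.17 SE, limma adjusted p = 0.0372). This call ended with slide as a block (-0.45, 0.288), and without uninjured replicate 1 (0.17) or 2 (0.122) or without day 7 replicate 1 (0.102), 2 (0.0612) or 3 (0.0712), and the sign turned without scaling (0.49). At day 14 the difference of -0.44 was not called (limma adjusted p = 0.0609), but it was without uninjured replicate 3 (0.00274) or day 1 replicate 1 (0.0459). From day 14 to day 28 miR-23a rose by 0.54, 1.45-fold (limma adjusted p = 0.0396). The 4 day 28 arteries lay above all 3 of day 14, as was the case for 15.5% of all tested miRNAs. Slide as a block gave 0.55 with an adjusted p of 0.126, and leaving out any one of 10 arrays (each day 14 and day 28 array, day 7 replicates 1 and 3 and uninjured replicate 2) also ended this call, with a limma adjusted p from 0.0509 to 0.144.

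The difference between miR-23a and miR-23b within an array does not depend on how that array is scaled, and its mean was largest at day 7. It was 0.36, 0.39 and 0.21 in the uninjured arteries and 0.99, 1.09 and 1.01 at day 7, so the groups were wholly apart. It was 0.48, 0.43 and 0.46 at day 1, 0.82, 0.53 and 0.65 at day 14, and 0.47, 0.38, 0.35 and 0.44 at day 28, the last overlapping with the uninjured values. Over the 13 injured arteries the mean difference was 0.30 higher than in the 3 uninjured ones (exact two-sided permutation test p = 0.0179, adjusted p = 0.179 over 10 such tests), which does not pass the adjustment. By day, it was 0.71 higher at day 7, a 1.64-fold change in the ratio, 0.35 higher at day 14, and 0.14 higher at day 1. Each of these 3 reached the smallest two-sided p that an exact permutation test of 3 against 3 arrays can give, 0.1 (adjusted p = 0.25). Within slide 2 alone, the mean of the 5 injured arteries was 0.24 higher than that of the 3 uninjured ones, with overlap (exact permutation test p = 0.107, adjusted p = 0.321). A limma fit of the per-array differences with a shared spread, added after the data had been seen, gave 0.71 at day 7 (95% interval 0.49 to 0.93, adjusted p = 9.69e-05 over 12 tests; 0.68 and 0.0146 blocked by slide). It gave 0.35 at day 14 (adjusted p = 0.011; 0.0303 with slide as a block), 0.14 at day 1 (0.298) and 0.09 at day 28 (interval -0.12 to 0.30, 0.431). The second probes of both miRNAs had a larger offset and the same course, with means of 0.62 ± 0.11 (SD, n = 3) in uninjured arteries and 1.32 ± 0.08 (SD, n = 3) at day 7.

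**Figure D2:**
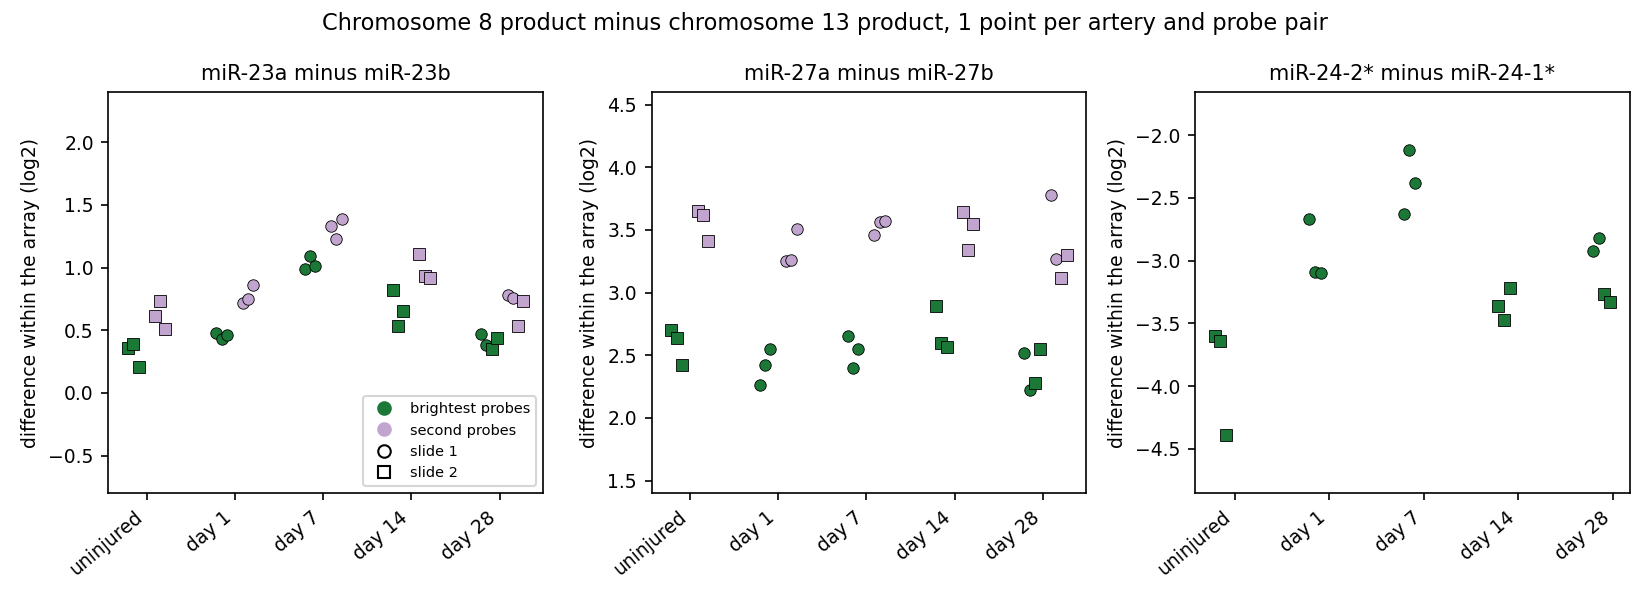
Level of the chromosome 8 product minus that of the chromosome 13 product within each array (log2; the 3 panels span the same range), by group, for the brightest probes (green). Second probes (purple) are drawn for the miR-23 and miR-27 pairs only. For miR-23a minus miR-23b the 3 day 7 arteries lie at 0.99 to 1.09 against 0.21 to 0.39 in uninjured ones, whereas miR-27a minus miR-27b overlaps between day 7 and uninjured.

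miR-27a and miR-27b showed no such separation between the clusters. miR-27a stood at 4.44, 4.31 and 3.82 in uninjured arteries, 3.99, 3.66 and 3.68 at day 1, 3.51, 3.55 and 3.65 at day 7, 3.80, 3.79 and 3.73 at day 14, and 4.00, 4.14, 4.05 and 4.06 at day 28. Days 7 and 14 lay wholly below the uninjured arteries, as was the case for 31.7% and 23.3% of all tested miRNAs. It was 1.53-fold lower at day 7 (-0.62 ± 0.15 SE, limma adjusted p = 0.00354; -0.63 and 0.0702 blocked by slide; 0.35 without scaling) and 1.34-fold lower at day 14 (-0.42, limma adjusted p = 0.0394; 0.0878 within slide 2; 0.24 without scaling). The day 14 call also ended without any one of 6 arrays, which were day 28 replicate 3, each of the 3 day 14 replicates and uninjured replicates 1 and 2 (limma adjusted p from 0.052 to 0.177). miR-27b was at 1.74, 1.67 and 1.40 in uninjured arteries, 1.73, 1.24 and 1.12 at day 1, 0.86, 1.15 and 1.10 at day 7, 0.91, 1.18 and 1.15 at day 14, and 1.48, 1.91, 1.77 and 1.51 at day 28. Here too days 7 and 14 lay wholly below uninjured (31.7% and 23.3% of all tested miRNAs did), and day 28 overlapped. miR-27b was 1.48-fold lower at day 7 (-0.56 ± 0.18 SE, limma adjusted p = 0.0186; -0.62 and 0.144 blocked by slide; 0.40 without scaling) and 1.44-fold lower at day 14 (-0.52, limma adjusted p = 0.0345; 0.0271 within slide 2; 0.14 without scaling). Neither day was called with the second probe of miR-27b (-0.49, limma adjusted p = 0.0822, and -0.31, 0.328). Leaving out day 7 replicate 1 (limma adjusted p = 0.0756) or uninjured replicate 1 (0.0686) or 2 (0.0574) ended the day 7 call of miR-27b, and leaving out day 14 replicate 1 (0.127) or 3 (0.0528) or uninjured replicate 1 (0.115) or 2 (0.0952) ended that at day 14. From day 14 to day 28 it rose by 0.59, 1.50-fold (limma adjusted p = 0.0319; 0.131 with slide as a block), a call that ended without any one day 14 array or without day 28 replicate 2 or 3 (limma adjusted p from 0.0588 to 0.144).

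The within-array difference of miR-27a and miR-27b averaged 2.59 ± 0.15 (SD, n = 3) in uninjured arteries and 2.53 ± 0.13 (SD, n = 3) at day 7. Over all injured arteries it was -0.09 relative to uninjured (exact two-sided permutation test p = 0.446, adjusted p = 0.558). In the added limma fit the day 7 difference was -0.05 with a 95% interval of -0.36 to 0.25 (adjusted p = 0.708), which lies below the 0.71 found for the miR-23 pair. Whether the 2 pairs differ from each other was not tested. Within the chromosome 13 cluster, miR-23b minus miR-27b was 1.81 ± 0.13 (SD, n = 3) in uninjured arteries and 1.19 ± 0.14 (SD, n = 3) at day 7, with ranges of 1.69 to 1.95 and 1.06 to 1.35. Within the chromosome 8 cluster, miR-23a minus miR-27a was -0.46 ± 0.06 (SD, n = 3) and -0.31 ± 0.07 (SD, n = 3). These values within a cluster are given as a description, with no test.

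miR-24, the strand made from both clusters, was at 4.53, 4.45 and 4.21 in uninjured arteries and at 4.05, 3.75 and 3.65 at day 1. It was at 3.50, 3.64 and 3.63 at day 7, 3.96, 4.09 and 3.97 at day 14, and 4.04, 4.24, 4.40 and 4.34 at day 28. Days 1, 7 and 14 lay wholly below uninjured (15.2%, 31.7% and 23.3% of all tested miRNAs did), and day 28 overlapped. It was 1.50-fold lower at day 1 (-0.58 ± 0.14 SE, limma adjusted p = 0.00596; -0.35 and 0.324 blocked by slide) and 1.75-fold lower at day 7 (-0.81 ± 0.14 SE, limma adjusted p = 0.000322; -0.57 and 0.0577 blocked by slide; 0.16 without scaling). At day 14 it was 1.31-fold lower (-0.39, limma adjusted p = 0.0394; 0.0282 within slide 2; 0.27 without scaling). The day 14 call ended without any one of 7 arrays (each day 14 array, uninjured replicates 1 and 2, day 1 replicate 2 and day 7 replicate 3), with a limma adjusted p from 0.0507 to 0.147. The difference of 0.42 from day 7 to day 14 was not called (limma adjusted p = 0.0664; 0.0478 without uninjured replicate 3). With its second probe, miR-24 gave -0.30 at day 1 (limma adjusted p = 0.138), -0.58 at day 7 (0.00418) and -0.30 at day 14 (0.138).

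The partner strands differ in sequence between the loci, although they share their first 16 bases. miR-24-1*, from chromosome 13, stood at -0.91, -0.94 and -0.99 in uninjured arteries and at -1.65, -1.89 and -2.00 at day 1. It was at -2.45, -2.44 and -2.28 at day 7, -1.68, -1.32 and -1.50 at day 14, and -1.70, -1.45, -1.06 and -1.34 at day 28. It was the only member for which every injured artery, at all 4 days, lay below all uninjured ones, as was the case for 2.8% of all tested miRNAs. miR-24-1* fell 2.72-fold at day 7 (-1.45 ± 0.16 SE, limma adjusted p = 9.08e-06; -1.07 and 0.00302 blocked by slide), the largest difference among the members on this scale. miR-23b differed more than miR-24-1* at day 7 with slide as a block (-1.13 against -1.07) and with the second probes (-1.29 against -0.75). The level was 1.87-fold lower at day 1 (-0.90 ± 0.16 SE, limma adjusted p = 0.000844; -0.52 and 0.195 blocked by slide). It was 1.47-fold lower at day 14 (-0.55, limma adjusted p = 0.0143; 0.0136 within slide 2; 0.0682 without day 14 replicate 1; 0.11 without scaling). At day 28 it was 1.36-fold lower (-0.44 ± 0.15 SE, limma adjusted p = 0.0445; -0.25 and 0.273 blocked by slide; 0.20 without scaling), and leaving out any one of 11 arrays ended that call (each uninjured and day 7 array, day 28 replicates 1, 2 and 4, day 1 replicate 2 and day 14 replicate 3; limma adjusted p from 0.0507 to 0.104). Its second, dimmer probe disagreed on the early and late days, with -0.08 at day 1 (limma adjusted p = 0.871), -0.75 at day 7 (0.00257), -0.51 at day 14 (0.0369) and -0.01 at day 28 (1.0).

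miR-24-2*, from chromosome 8, was at -4.51, -4.58 and -5.38 in uninjured arteries and at -5.08, -4.56 and -4.67 at day 7. The day 1 arteries lay at -4.33, -4.98 and -5.10, those of day 14 at -5.04, -4.80 and -4.72 and those of day 28 at -4.62, -4.28, -4.34 and -4.67, so every injured group overlapped with uninjured. It was called in no comparison, the day 7 difference being 0.05 ± 0.25 SE (limma adjusted p = 0.89, 95% interval -0.50 to 0.60). The signal was weak, at most 56.65 intensity units, and its second probe was not well above background on any uninjured or day 1 array. Within an array, miR-24-2* minus miR-24-1* was -3.88 ± 0.44 (SD, n = 3) in uninjured arteries and -2.38 ± 0.25 (SD, n = 3) at day 7, a difference of 1.50 (limma adjusted p = 9.69e-05 over the 12 added tests; 1.07 and 0.0303 blocked by slide). The same fit gave 0.92 at day 1 (adjusted p = 0.00509; 0.49 and 0.33 blocked by slide), 0.53 at day 14 (0.0724) and 0.79 at day 28 (0.00743; 0.57 and 0.0753 blocked by slide). With the second probes of both, that of miR-24-2* being undetected on many arrays, the means were nearer to each other, at -1.76 in uninjured arteries, -1.63 (day 1), -0.95 (day 7), -1.19 (day 14) and -1.44 (day 28).

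**Figure D3:**
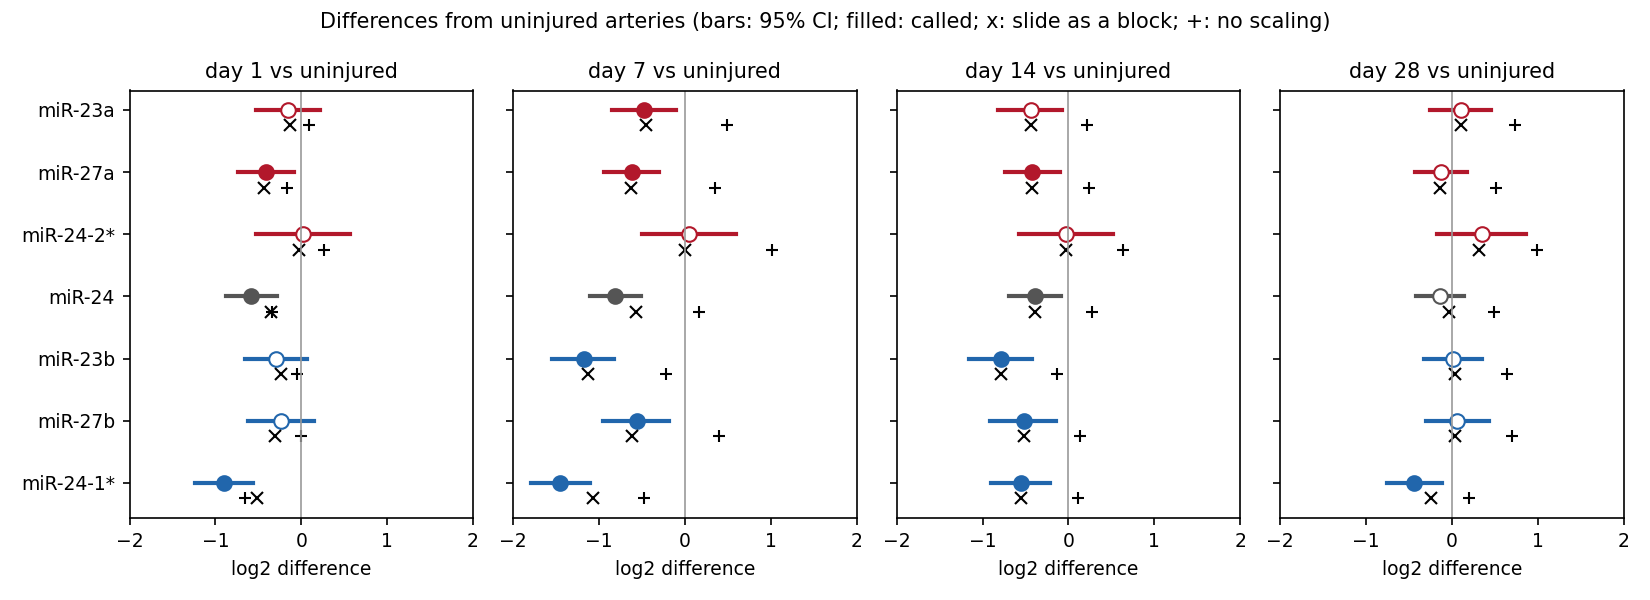
Log2 difference of each miRNA from uninjured arteries at each day, from limma (circles, filled where called; lines, 95% interval; red for chromosome 8, blue for chromosome 13, grey for miR-24), with the same difference with slide as a block (x) and without scaling (+). At day 7 the circles of 6 members are filled, and without scaling 4 of these lie above 0.

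At day 1, the count of members called depended on slide and scaling. As reported here, 3 of the 7 members were called lower, against 12.7% of all tested miRNAs: miR-24, miR-24-1* and miR-27a (-0.41 ± 0.15 SE, 1.33-fold, limma adjusted p = 0.048). The call of miR-27a ended without any one of 14 arrays, all but day 1 replicate 1 and uninjured replicate 3 (limma adjusted p from 0.0523 to 0.194), and with slide as a block none of the 3 was called, where 1.86% of all tested miRNAs were called lower. With median scaling 6 members were called lower, where 32.0% of all tested miRNAs were, since 103 were then called lower and 17 higher, against 41 and 63 here. The day 1 differences of the others were -0.15 for miR-23a (limma adjusted p = 0.509), -0.29 for miR-23b (0.2; 0.047 without uninjured replicate 3), -0.24 for miR-27b (0.317) and 0.02 for miR-24-2* (0.967). From day 1 to day 7, 2 of 7 members were called lower, a count near the share over all tested miRNAs, 24.5%. These were miR-23b, given above, and miR-24-1* (-0.54, limma adjusted p = 0.0142), both from chromosome 13. The uncalled members miR-23a, miR-27a and miR-24 also had all day 7 arteries below all day 1 arteries. Within the slide that holds both days the adjusted p of miR-24-1* was 0.0194. It was 0.0578 without day 1 replicate 1, it shrank to -0.05 with median scaling (0.839) and -0.06 with the percentile over all probes (0.852), and the sign turned without scaling (0.18) and with quantile normalization (0.09). Over all tested miRNAs, median scaling called 104 higher and 36 lower between these days, against 60 and 79 here.

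At day 14, 5 of 7 members were called lower, against 18.9% of all tested miRNAs, and these were miR-23b, miR-27b, miR-24-1*, miR-24 and miR-27a. Both groups lie on slide 2, and within it 4 were called, the exception being miR-27a, where 15.5% of all tested miRNAs were called lower. This count was 1 without day 14 replicate 1, 3 without day 14 replicate 2, and 2 without day 14 replicate 3, uninjured replicate 1 or uninjured replicate 2. Between day 7 and day 14, which lie on different slides, only miR-24-1* rose (0.89 ± 0.16 SE, 1.85-fold, limma adjusted p = 0.0102), 1 of 7 members against 4.04% of all tested miRNAs called higher. That call ended with slide as a block (0.51, 0.444) and without day 14 replicate 2 (0.0533).

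At day 28 the clusters stood near the uninjured levels, with differences from -0.14 to 0.35 for the 6 members other than miR-24-1*. Only that 1 of the 7 was called lower, where 9.32% of all tested miRNAs were. Between day 14 and day 28, 3 of 7 members rose, miR-23a, miR-23b and miR-27b, where 9.94% of all tested miRNAs were called higher. Over the 4 days together, a moderated F test called 6 of 7 members, all but miR-24-2*, against 61.2% of all tested miRNAs. Of these miR-23a was lost without day 7 replicate 1 (limma adjusted p = 0.0516) or day 28 replicate 3 (0.0537). The order of mean levels was day 28, uninjured, day 1, day 14 and day 7, from the highest, for miR-23a, miR-23b and miR-27b. For miR-24 and miR-24-1* it was uninjured, day 28, day 14, day 1 and day 7, and for miR-27a uninjured, day 28, day 1, day 14 and day 7. In the first order neither the upper neighbours, day 28 and uninjured, nor the lower ones, day 14 and day 7, differed by a called amount. These orders depend on the scaling. With median scaling, day 1 lay further below uninjured than day 7 for miR-23a (-0.81 against -0.63), miR-27a (-1.07 against -0.78), miR-27b (-0.89 against -0.73) and miR-24 (-1.24 against -0.97), and day 28 lay under uninjured for miR-23a (-0.18), miR-23b (-0.27) and miR-27b (-0.21).

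The tested miRNA most like each member over the 16 arrays, by Pearson's r of the levels, was miR-26a for miR-23a (0.943) and miR-27b (0.934), miR-181c for miR-23b (0.935), and miR-345-5p for miR-27a (0.923). It was miR-361 for both miR-24 (0.919) and miR-24-1* (0.952), and miR-690 for miR-24-2* (0.719). Among the members themselves miR-24 and miR-24-1* were closest (0.95), while miR-24-2* and miR-24-1* gave 0.19. These arrays share groups, slides and the scaling, so the coefficients are descriptions.

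Markers of the cell types of the vessel wall and of blood moved over the same days. Their calls are from the fit without slide, although days 1 and 7 lie on another slide than uninjured. With slide as a block, 30 rather than 104 of all tested miRNAs were called at day 1, and 91 rather than 161 at day 7. The summed scaled signal of the smooth muscle markers miR-143 and miR-145 was 3.53 to 6.37 in uninjured arteries, 1.54 to 1.80 at day 7 and 1.05 to 1.10 at day 14, with both called lower at each of these days. The endothelial markers summed to 9.70 to 10.3 in uninjured arteries and 12.3 to 15.4 at day 7, where the 1 of 2 that was tested, miR-126-3p, was called higher and miR-126-5p was not well above background on any uninjured array. Leukocyte markers rose from 1.61 to 1.97 in uninjured arteries to 25.6 to 28.3 at day 1 and 13.1 to 17.4 at day 7, with 4 of 5 called higher on each day, and miR-150 was not well above background on any uninjured array. Adipose markers went from 8.37 to 11.5 to 2.07 to 2.77 at day 7, with 2 of 3 called lower, neuronal ones from 0.784 to 2.03 to 0.106 to 0.147, with all 3 tested called lower and miR-9 not well above background in either group. Striated muscle markers summed to 7.97 to 12.2 and 3.86 to 7.25, with 1 of 4 called lower, and erythroid ones to 16.3 to 42.9 and 15.1 to 27.7, where the erythroid markers miR-451, miR-144 and miR-486 had limma adjusted p-values of 0.303, 0.521 and 0.054 at day 7. The part of these markers in the changes of the clusters was not tested, and in whole arteries fewer cells of a type and less RNA per cell cannot be told apart.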

How the data were processed

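Total RNA of 16 carotid arteries was labelled with Cy3, per the labels' protocols, and hybridised to 1-colour Agilent mouse miRNA arrays (Sanger release 12 design). The deposited scanner files, made by the authors with Agilent Feature Extraction per the file headers, give each spot's processed intensity after background subtraction; further upstream steps are not stated by the labels or headers. Here, a probe's spots without an outlier mark were averaged, and detection required 50% or more of them to be well above background. The scale of an array was its 75th percentile over the 395 mouse probes detected everywhere. A floor of 0.0181 was applied to the scaled value before log2 was taken of these deposited intensities. Each miRNA was represented by its brightest probe, and 322 miRNAs, detected throughout 1 or more groups, entered the test. No mouse spot was saturated (0 spots).

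limma 3.58.1 in R 4.3.3 fitted all 5 groups, with Benjamini-Hochberg adjustment within each comparison (called under 0.05). Exact permutation tests used SciPy. Each slide, known by its barcode, held 8 arrays. Whether a slide was also a separate scan run was not examined. Fits were tested on simulated data. The members, lists and tests were chosen with earlier results of these data known; all 7 members were named whether or not they passed, with the most correlated miRNAs. The deposited value table (610 miRNAs, a linear intensity; 99.95% of values within 0.1% of the total gene signal) served as an alternative. For that table the column medians, by replicate, were 12.98, 13.5, 8.44 at day 1; then 16.55, 11.52, 11.01 for day 7; 7.67, 11.23, 14.24 in the day 14 group; 9, 16.06, 11.62, 7.62 in the 4 day 28 columns; in uninjured arteries 3.81, 5.36, 7.93, so it was neither centred nor scaled; its direction is that of the scanner files. The number of arrays limits the precision.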

Additional observations from a re-analysis of the deposited data

Results flagged for a closer look

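The uninjured arteries are a single group without a day label, shared by both days of a pair. A called difference between days can therefore not be told apart from other differences between the groups, such as labelled age for day 1. Between days 6 differences were called, of which 3 kept their call with slide as a block. Of all tested miRNAs, 24.5% were called lower at day 7 than at day 1 (23.9% with slide as a block). From day 7 to day 14, 4.04% were called higher (0.0% with slide as a block), and from day 14 to day 28, 9.94% (6.21%). From day 1 to day 7 miR-23b changed by -0.89 and miR-24-1* by -0.54 (limma adjusted p = 0.000915 and 0.0142). Both had all day 7 arteries below all day 1 arteries, as did 35.4% of all tested miRNAs. The uncalled members miR-23a, miR-27a and miR-24 did so too. These days share a slide, so slide as a block could not change the differences themselves. Neither was called with median scaling or with the 75th percentile over all mouse probes, the latter giving -0.41 and -0.06. Between day 7 and day 14 miR-24-1* changed by 0.89 (limma adjusted p = 0.0102), across 2 slides, and with slide as a block the adjusted p was 0.444. Between day 14 and day 28 the changes were 0.54 for miR-23a, 0.80 for miR-23b and 0.59 for miR-27b (limma adjusted p = 0.0396, 0.00493 and 0.0319; 0.126, 0.0223 and 0.131 with slide as a block). In the 4 day 28 arteries no member, and neither the miR-23 nor the miR-27 pair difference, had an artery beyond Dixon's critical value, in 9 groups of values tested, where chance alone would mark about 1 in 20.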

How the results depend on the processing

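Over all members, comparisons and alternatives, 1604 of 1841 values kept their direction and side of the threshold, 198 lost the call, 28 gained it and 11 turned. The differences of the miR-23 and miR-27 pairs between all injured and uninjured arteries were not called (exact permutation test adjusted p = 0.179 and 0.558). They kept that and their direction in all alternatives run. Alternatives that only rescale an array could not change them, so those say nothing of their stability. In the added limma fit by day, the miR-24-2* and miR-24-1* pair lost its calls at day 1 and day 28 with slide as a block (limma adjusted p = 0.33 and 0.0753). No scaling ended the calls of all members (0 called at day 1, 7, 14 and 28, between days and over any day). It left 35.7% of all tested miRNAs called over any day, and 0.0% to 3.42% in the members' direction in the other comparisons. It also turned the day 7 differences of miR-23a (0.49), miR-27a (0.35), miR-27b (0.40) and miR-24 (0.16), those at day 14 of miR-27a (0.24), miR-27b (0.14), miR-24 (0.27) and miR-24-1* (0.11), and miR-24-1* at day 28 (0.20) and from day 1 to 7 (0.18). Quantile normalization turned the last (0.09). The cause of each change was not tested. The members called at day 1 (3 as reported) were 6 with the 75th percentile over all probes, median scaling or array weights, 1 with the deposited value table, and 0 with the second-brightest probe, slide as a block, or replicate block with slide; of all tested miRNAs 19.6% to 32.0%, 9.97% and 0.621% to 6.21% were called lower in these. At day 7 (6) they were 2 with slide as a block and 0 with the replicate block and slide (12.1% and 3.73% of all tested called lower). At day 14 (5) they were 2 with the percentile over all probes, normexp, the second-brightest probe, the replicate block or the replicate block with slide, and 3 with the value table, the mean over probes, no filter, or only the groups compared (10.6% to 16.1% and 7.53% to 19.6% of all tested). At day 28 (1) they were 0 with the percentile over all probes, a floor 0.5 times as high, the mean over probes, no filter, normexp, the second-brightest probe, slide as a fixed or random block, the replicate block with or without slide, within 1 slide, or only the groups compared (0.621% to 9.32%). Day 7 against day 1 (2) gave 0 with the percentile over all probes or median scaling and 1 with normexp or quantile normalization (10.2% to 11.2% and 12.7% to 14.6%). Day 14 against day 7 (1) gave 0 with the percentile over all probes, the second-brightest probe, slide as a block or the replicate block with slide, 2 with a floor 2 times as high, outlier spots kept, quantile normalization or only the groups compared, and 3 with array weights (0.0% to 0.932%, 3.42% to 6.83% and 18.3% called higher). Day 28 against day 14 (3) gave 0 with the percentile over all probes, the value table, total gene signal, replicate block with slide, or within 1 slide, and 1 with median scaling, no filter, normexp, quantile normalization, the second-brightest probe, slide as a block or the replicate block (0.0% to 4.04% and 4.09% to 7.14%). Over any day (6) the replicate block with slide gave 3 (47.8%). Median scaling also moved the split of higher against lower calls over all tested miRNAs, from 54 and 30 to 30 and 41 at day 28, from 65 and 61 to 52 and 76 at day 14, and from 89 and 72 to 73 and 83 at day 7; without scaling it was 61 and 1, 68 and 4, and 122 and 9. With 1 array left out, the counts were 2 to 4 (day 1), 4 to 6 (day 7), 1 to 6 (day 14) and 0 to 1 (day 28) against uninjured, 1 to 2 for day 7 against day 1, 0 to 2 for day 14 against day 7, 1 to 3 for day 28 against day 14 and 5 to 6 over any day; miR-23a minus miR-23b then ranged from 0.25 to 0.34 and miR-27a minus miR-27b from -0.17 to -0.03. The replicate numbers were used only in checks of pairing. Residuals of same-numbered arrays had a median correlation of -0.06 (-0.45 to 0.56), and 4 of 16 arrays correlated best with their own number. The labels do not say what the numbers mean, and these values cannot show that same-numbered samples are unrelated. Over all tested miRNAs the alternatives called 10 to 197 (day 1), 45 to 200 (day 7), 72 to 179 (day 14) and 21 to 107 (day 28) against uninjured. For days 7 and 1 they called 78 to 203, for days 14 and 7 0 to 130, for days 28 and 14 0 to 71, and over any day 115 to 266. The weak signal of miR-24-2* limits what can be said of its change. The choice of the second-brightest probe and the limma fit of paralogue differences were added after seeing the data.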

Other observations

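The partner strands of miR-27a and miR-27b also have probes. miR-27a* and miR-27b* were not well above background with any probe on any of the 16 arrays, so no level is given for them. miR-673-5p, which shares bases 2 to 7 with miR-27, was at the floor of -5.79 on all 16 arrays and was not tested.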
